A study of Mus musculus with 24 samples.

Results

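The genes of the Wnt signalling pathway were examined in mouse brain, from the secreted ligands to the nuclear factors that bind DNA. The members were the probe sets whose only gene symbol in the platform annotation was a Wnt, Fzd, Sfrp1 to Sfrp5, Dkk1 to Dkk4, Lrp5, Lrp6, Dvl1 to Dvl3, Apc, Axin1, Axin2, Gsk3a, Gsk3b, Ctnnb1, Lef1 or Tcf7 family gene. The rule found 73 probe sets of 24833 in all, and they stood for 45 genes of 13674. Array A, the MGU74A design of Affymetrix, held 51 of them for 41 genes, and array B, the MGU74B design, held 22 for 17 genes, with 13 genes on both.

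Total RNA of brain was compared between 2N mice, with an ordinary set of chromosomes, and Ts1Cje mice, a model of Down syndrome. In Ts1Cje mice the distal end of chromosome 16, from next to Sod1 onwards, is present in 3 copies, the third of them translocated onto distal chromosome 12, and Sod1 is disrupted on that copy. There were 6 samples of each genotype on either array design. The labels give no brain region, age, sex or strain background. Nor do they call the samples separate animals, and the p-values therefore reflect the spread among these samples, some of which may be technical.

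Wnt proteins are secreted lipid-modified ligands that bind Frizzled receptors (Fzd) and the co-receptors Lrp5 and Lrp6 at the cell surface. Without ligand, a complex built on Axin and Apc lets Gsk3 mark beta-catenin (Ctnnb1) for destruction. With ligand, Dishevelled proteins (Dvl) disable that complex, and beta-catenin enters the nucleus and joins Tcf and Lef factors at target genes. Sfrp and Dkk proteins are secreted and modulate the pathway outside the cell, Sfrp mainly by binding Wnt and Dkk1 and Dkk2 by binding the co-receptors. In brain the pathway is known for its part in patterning, in progenitor division and in synapse formation.

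The 45 genes comprised 15 ligands, 9 receptors, 2 co-receptors, 7 secreted inhibitors, 3 Dishevelled genes, 5 genes of the destruction complex, beta-catenin and 3 nuclear factors. All 45 were found in the RefSeq annotation of GRCm38.p6. Gsk3b (38089001 to 38246084) and Dvl3 (20516949 to 20534013) were the 2 members on chromosome 16. Both lie centromeric of Sod1, which starts at 90220762, so neither is in the segment that Ts1Cje mice carry in 3 copies. No member lay distal to Sod1, and none lay on chromosome 12.

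Tcf and Lef proteins bind a short core sequence, so the 250 bases upstream of each annotated transcript start were searched on both strands for CTTTGAA (found in 4.46% of all windows), CTTTGAT (3.21%), CTTTGTA (3.20%) and CTTTGTT (5.03%). Upstream sequence was given for 30 of the 45 genes, as 38 windows, and 7 of those windows (18.4%), each of a different gene, held at least 1 match. Of all 32851 windows of that length, 4874 (14.8%) held one. The median GC content was 67.4% in the members' windows and 52.4% in all windows, and the shares were not adjusted for it. The stretches around the matches are shown because they are where these windows hold the letters of the core sequence. They are from RefSeq, GRCm38.p6, 5′ to 3′ on the strand of the gene, with the match in capitals, as written or as its reverse complement.
Fzd7 (chr1:59482006-59482034, + strand): tccacagagaaAACAAAGcgcgctattgg
Lef1 (chr3:131156136-131156164, + strand): caacctcagaaTACAAAGtaggattgcat
Wnt5b (chr6:119449440-119449468, - strand): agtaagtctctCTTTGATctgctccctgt
Gsk3a (chr7:25237992-25238020, - strand): tgactgtgtttTTCAAAGtgcttccaagt
Wnt11 (chr7:98835050-98835078, + strand): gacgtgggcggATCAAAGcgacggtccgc
Dkk1 (chr19:30549596-30549624, - strand): tcctcccaaagCTTTGAAatcccatcccg
Dkk1 (chr19:30549577-30549605, - strand): tcccatcccggCTTTGTTgtcttccctga
Tcf7l2 (chr19:55895296-55895320, + strand): aaaatatcaggCTTTGTTcttttga
The stretches of Lef1, Wnt5b and Tcf7l2 precede internal starts and lie inside the span of their gene, and the others lie outside it. The only window given for Axin2, a feedback inhibitor that beta-catenin is known to induce, also precedes an internal start, and it held none of the 4 motifs. A match is a description of letters and not a binding site, and its absence says only that these letters are not in this window.

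Values are intensities in arbitrary units after quantile normalisation within each array design. The median intensity as deposited was 11.2 to 21.7 per sample for array A and 7.9 to 13.8 for array B. On array B the samples numbered 1 and 2 had higher medians (11.4 to 13.8) than those numbered 3 to 6 (7.9 to 10.2), in both genotypes. That split was seen in the data of array B and is not in the labels. On array A the medians of these sets of samples overlapped. The set numbered 1 and 2 holds only 2 samples of each genotype. Markers of neurons were bright, with 11 of 11 on array A above the median of the table, whereas 1 of 9 markers of thymus and T cells reached it. The summed level of each marker list overlapped between the genotypes for all 17 combinations of list and array. Linear intensities were summed, so the brightest genes of a list weigh most. On array B the choroid plexus and T cell lists held 1 gene each. No marker passed the threshold in 97 tests (limma), in which a gene on both arrays could count on each. The smallest adjusted p was 0.896, for Sox10 on array B (limma). In bulk RNA, fewer cells of a type and less RNA per cell cannot be told apart.

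In 2N brain the intracellular members gave the brightest signal and most ligands gave a dim one. By the mean over the samples of both genotypes, 38 of the 73 member probe sets lay above the median of their table. These were 10 of 10 for the destruction complex, 1 of 1 for beta-catenin, 3 of 4 for Dishevelled genes and 6 of 8 for nuclear factors. Outside the cell and at its surface they were 5 of 9 for secreted inhibitors, 9 of 20 for receptors, 1 of 3 for co-receptors and 3 of 18 for ligands. Because probe sets differ in how well they hybridise, these intensities rank signals and not transcript amounts.

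**Figure D1:**
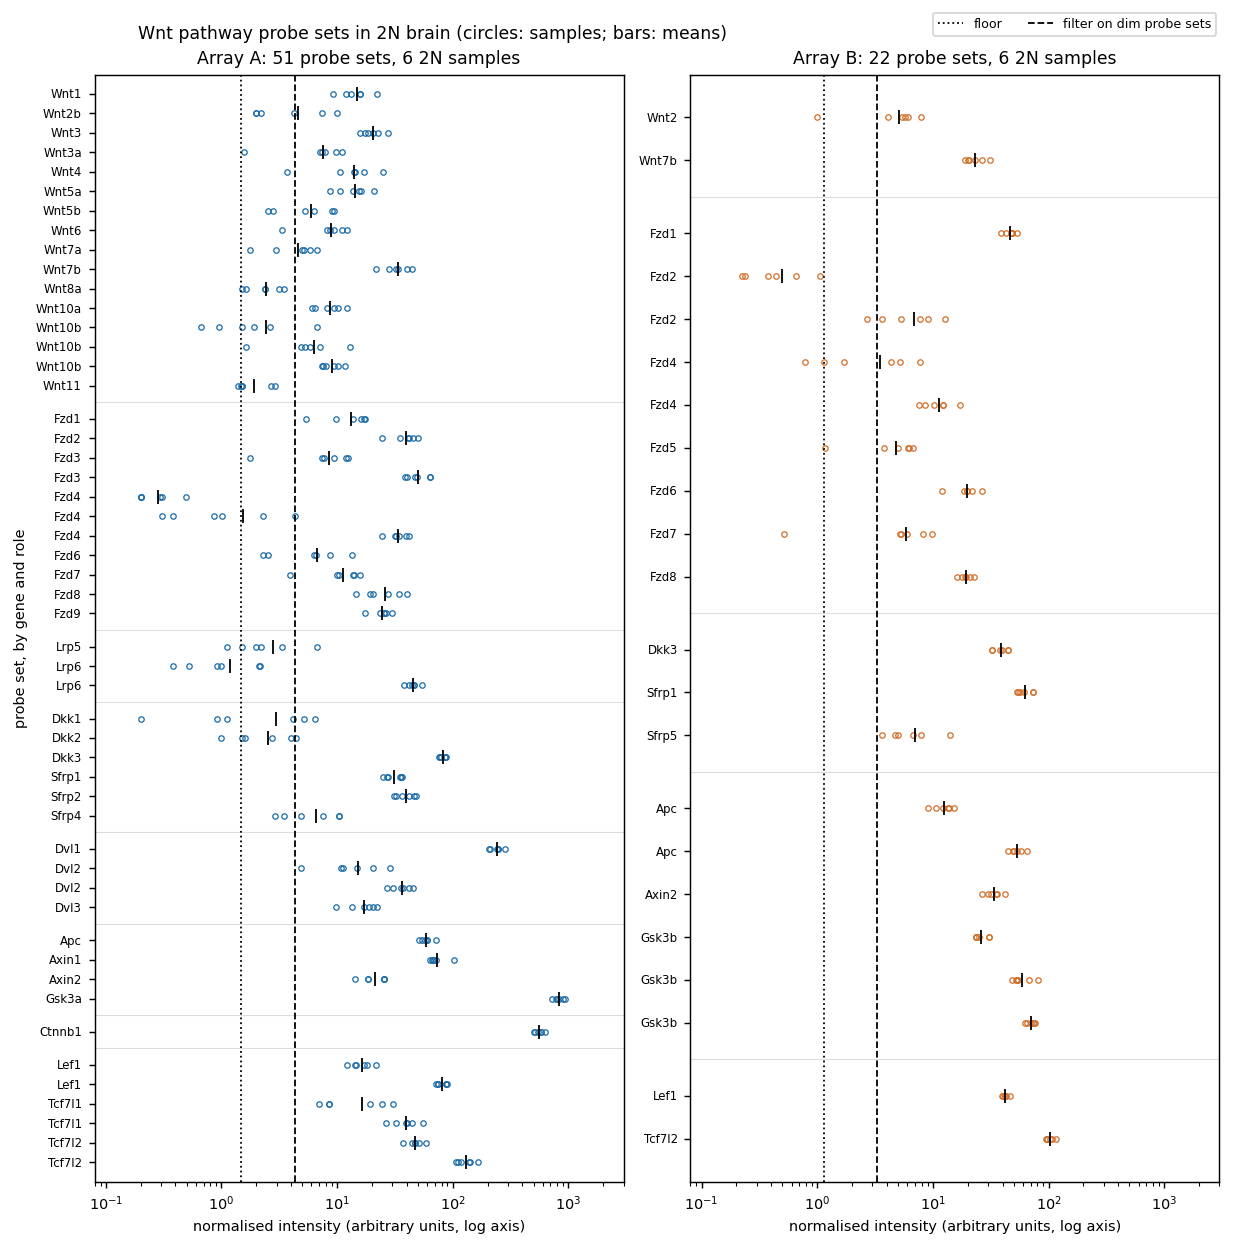
Normalised intensity of each member probe set in the 6 2N samples (circles, log axis, arbitrary units) with the mean as a bar, grouped by role; the dotted line is the floor and the dashed line the filter on dim probe sets. Gsk3a and Ctnnb1 are the brightest on array A, with means of 828 and 559, and most Wnt ligands lie below 15.

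Gsk3a, a kinase that phosphorylates beta-catenin, had a mean of 828 ± 78.6 (SD, n = 6) in 2N brain. Its mean over the samples of both genotypes lay in the 98.9th percentile of array A. Ctnnb1, beta-catenin itself, had 559 ± 46.7 (SD, n = 6). Dvl1, a Dishevelled gene, had 240 ± 29.8 (SD, n = 6). Among nuclear factors the brightest probe set was one of Tcf7l2, at 130 ± 21.9, followed on array A by Lef1 at 80.7 ± 8.29 and Tcf7l1 at 39.6 ± 9.80 (SD, n = 6 each). Among secreted inhibitors Dkk3 had 82.0 ± 5.03 on array A, Sfrp1 had 62.0 ± 9.51 on array B and Sfrp2 had 39.4 ± 7.41 on array A (SD, n = 6 each). The brightest receptor probe sets were Fzd3 at 50.3 ± 10.9 and Fzd2 at 39.7 ± 8.99 on array A, and Fzd1 at 46.4 ± 4.98 on array B (SD, n = 6 each). The co-receptor Lrp6 had 45.0 ± 5.44 and Lrp5 had 2.79 ± 2.03 (SD, n = 6 each), the latter too dim to be tested. The brightest ligands were Wnt7b at 33.4 ± 8.26, Wnt3 at 20.4 ± 4.30 and Wnt1 at 14.8 ± 4.49, all on array A (SD, n = 6 each).

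Probe sets whose mean fell below the 25th percentile of their table were left out of the tests, which kept 61 of the 73 members, 41 on array A and 20 on array B, for 39 genes. The 12 others were too dim, and 6 genes (Dkk1, Dkk2, Lrp5, Wnt2b, Wnt8a and Wnt11) had no probe set that was tested. None of these dim genes can be said to be silent in brain, since a low intensity is not a call of absence.

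No Wnt pathway member passed the threshold between Ts1Cje and 2N brain. With limma and Benjamini-Hochberg adjustment over all probe sets of a table, 0 of 41 members passed on array A, where 0.0966% of all tested probe sets did, and 0 of 20 passed on array B, where 0.0645% did. Among members the smallest adjusted p was 0.991 (array A) and 0.997 (array B, limma). At an unadjusted p under 0.05 there were 5 of 41 on array A, against 3.65% of all probe sets, and 1 of 20 on array B, against 4.28% (limma). Of the 5 on array A, 4 were lower in Ts1Cje (Fzd9, Axin2, Sfrp1 and Wnt6), where 1.72% of all probe sets were, and 1 was higher (Dvl2), where 1.93% were. The 1 on array B was Fzd8, lower in Ts1Cje, where 2.13% of all probe sets were lower and 2.15% higher. No member had genotypes that did not overlap, against 0.301% of all probe sets tested on array A and 0.247% of those on array B. Neither count was stable to single samples. The 1 on array B became 0 without 2N replicate 1, 2, 3 or 5 and without Ts1Cje replicate 1, 4, 5 or 6, and 2 without Ts1Cje replicate 3. The 5 on array A became 1 when 2N replicate 3 or Ts1Cje replicate 1 was left out. It was 2 without 2N replicate 4, Ts1Cje replicate 2 or Ts1Cje replicate 6, and 3 without 2N replicate 2, 2N replicate 6, Ts1Cje replicate 3 or Ts1Cje replicate 5.

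The log2 difference, Ts1Cje minus 2N, was above 0 for 18 of 41 members on array A, where 48.9% of all probe sets were above 0, and for 9 of 20 on array B, where 49.3% were. Without normalisation between arrays it was above 0 for 12 members on array A. The members' median was -0.06 for array A and -0.04 for array B, against -0.00 over all tested probe sets of either table. The median size of the difference was 0.17 on both arrays, against 0.13 over all probe sets of array A and 0.15 on array B. By role, the log2 difference was above 0 for 5 of 14 tested ligand probe sets, 6 of 16 of receptors, 4 of 7 of secreted inhibitors, 2 of 4 of Dishevelled genes, 6 of 10 of the destruction complex and 3 of 8 of nuclear factors.

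**Figure D2:**
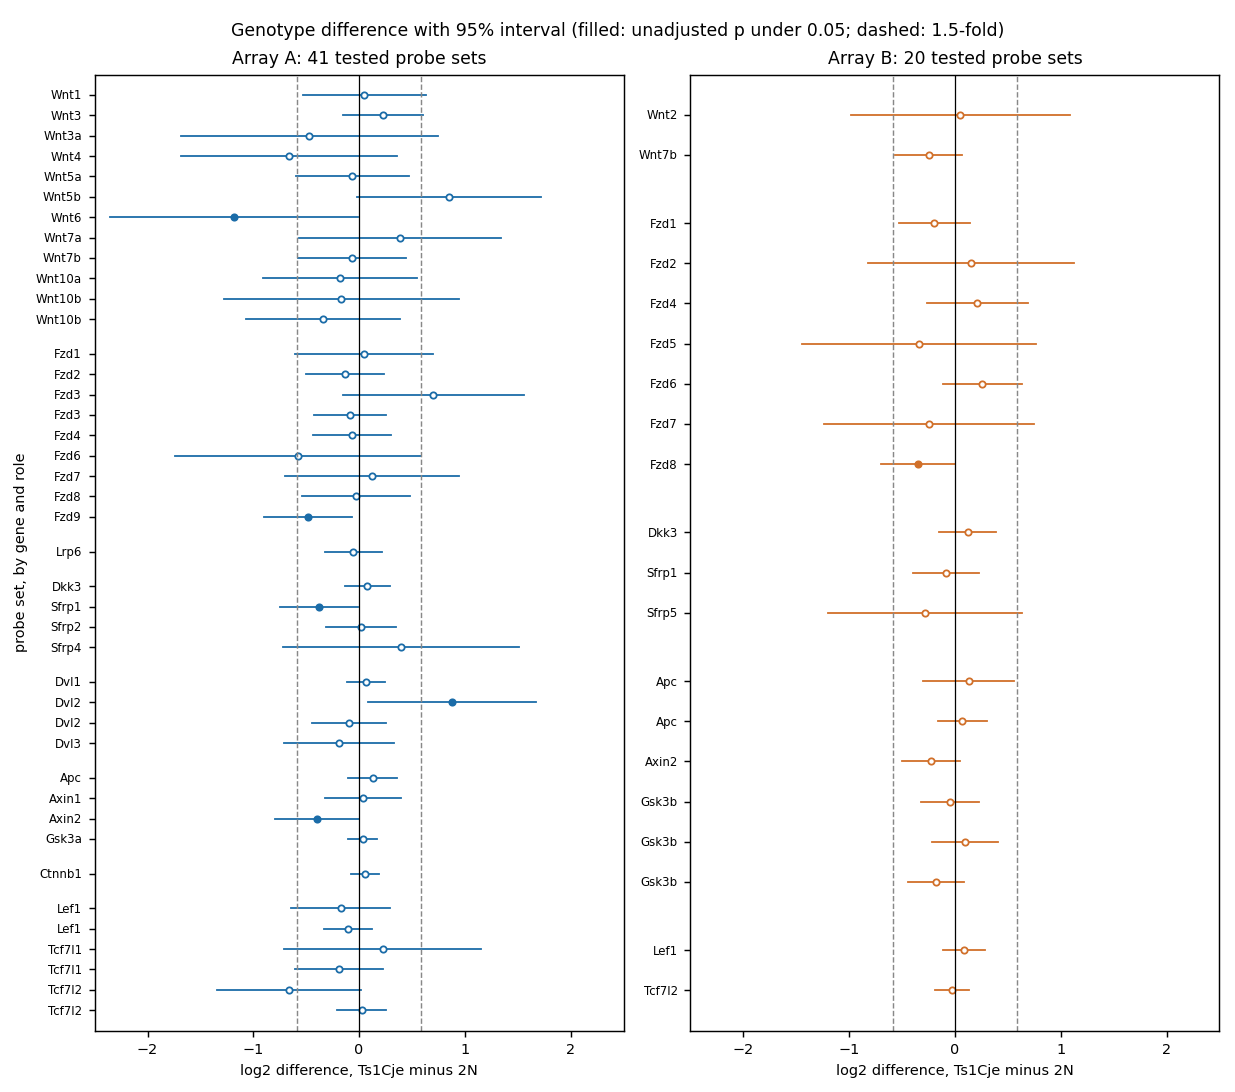
Log2 difference between Ts1Cje and 2N brain for the 61 tested member probe sets, with the 95% interval of the limma fit as a line; filled points have an unadjusted p under 0.05, and dashed lines mark 1.5-fold either way. Of the intervals 55 hold 0, and the widest belong to dim ligands and receptors such as Wnt6 and Fzd6.

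Among the ligands, Wnt6 and Wnt5b had the largest differences, and both are dim. Wnt6 intensity ran from 3.33 through a median of 8.98 to 12.3 in 2N and from 1.19 through 2.45 to 13.1 in Ts1Cje. The Ts1Cje samples thus spanned the whole 2N range, with 5 of 6 below the 2N median and 1 at the floor. The log2 difference was -1.18 (SE 0.56, 95% interval -2.36 to -0.01, limma unadjusted p = 0.048, adjusted p = 0.991), with a two-sided exact permutation p of 0.080. Wnt5b ran from 2.55 through 5.78 to 9.42 in 2N and from 4.87 through 9.35 to 14.3 in Ts1Cje. The ranges overlapped, with 5 of 6 Ts1Cje samples above the 2N median. The log2 difference of Wnt5b was 0.85 (SE 0.41, limma adjusted p = 0.991, exact permutation p = 0.071).

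Wnt7b, the brightest ligand, is a Wnt of cortical neurons known for its part in dendrite growth. On array A it ran from 21.5 through 32.9 to 44.7 in 2N and from 14.6 through 35.5 to 44.7 in Ts1Cje. Its log2 difference there was -0.07 (SE 0.24), and it was -0.25 (SE 0.15, exact permutation p = 0.067) with the probe set of array B, where the genotypes overlapped and 5 of 6 Ts1Cje samples lay below the 2N median. Without 2N replicate 1 the latter was -0.16, and its exact permutation p was 0.54 without normalisation between arrays. The difference was 0.23 (SE 0.18) for Wnt3 and 0.05 (SE 0.28) for Wnt1, which patterns the midbrain. None of the 3 passed (limma). In the samples numbered 3 to 6 alone the difference for Wnt1 was -0.34.

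Among the receptors, Fzd9 and Fzd8 were lower in Ts1Cje on 1 array each at an unadjusted p under 0.05, and neither passed. Fzd9 is a Frizzled receptor found in hippocampus and is one of the genes of the Williams syndrome region in humans. It ran from 17.45 through 25.3 to 29.6 in 2N and from 12.01 through 18.3 to 24.7 in Ts1Cje. All 6 Ts1Cje samples lay below the 2N median, and the ranges overlapped. Means were 24.6 ± 4.03 in 2N and 17.9 ± 4.40 in Ts1Cje (SD, n = 6 each), and the log2 difference was -0.48 (SE 0.20, 95% interval -0.90 to -0.06, limma adjusted p = 0.991, exact permutation p = 0.035). The exact permutation p was 0.084 without normalisation between arrays. The log2 difference was -0.44 in the samples numbered 3 to 6 and -0.57 in those numbered 1 and 2.

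Fzd8, another Frizzled receptor, ran on array B from 16.1 through 19.2 to 22.5 in 2N and from 11.4 through 15.9 to 19.1 in Ts1Cje. Again all 6 Ts1Cje samples lay below the 2N median, with overlapping ranges. The log2 difference was -0.35 (SE 0.17, limma adjusted p = 0.997, exact permutation p = 0.024), and the exact permutation p was 0.27 without normalisation. On array A the probe set of Fzd8 differed by -0.03 (SE 0.24), with means of 26.0 ± 9.73 and 24.6 ± 6.19 (SD, n = 6 each).

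The probe sets of Fzd6, and likewise those of Fzd3, gave opposite signs. Fzd6 differed by -0.58 (SE 0.55) on array A, where it was dim at 6.66 ± 4.17 in 2N and 4.19 ± 2.05 in Ts1Cje (SD, n = 6 each). On array B, where its mean was 19.7 ± 4.72 and 23.2 ± 3.14 (SD, n = 6 each), it differed by 0.26 (SE 0.18). Neither passed, and the genotypes overlapped on both arrays. The value was -0.31 on array A without Ts1Cje replicate 1 and 0.12 on array B without 2N replicate 5. Fzd3, a receptor needed for axon guidance, differed by 0.70 (SE 0.41, exact permutation p = 0.069) with a dim probe set and by -0.08 (SE 0.16) with a bright one whose name ends in _s_at. The dim one differed by 0.29 without 2N replicate 2, and its exact permutation p was 0.20 without normalisation between arrays. The suffixes _s_at and _f_at mark probe sets that may detect more than 1 transcript, and _r_at marks those for which Affymetrix dropped some selection rules. For Fzd1 the difference was -0.20 (SE 0.16) on array B and 0.05 (SE 0.31) on array A. For Fzd4 it was 0.21 (SE 0.23) on array B and -0.06 (SE 0.18) on array A, and the former ranged from 0.11 without 2N replicate 2 to 0.34 without 2N replicate 6, with 0.12 without Ts1Cje replicate 3. For Fzd2 it was -0.13 (SE 0.17) on array A and 0.15 (SE 0.46) on array B. None of these probe sets passed (limma), and for all 3 genes the signs differed between the arrays. The co-receptor Lrp6 differed by -0.05 (SE 0.13), and its other probe set, at 1.18 ± 0.773 in 2N and 3.62 ± 2.79 in Ts1Cje (SD, n = 6 each), was too dim to be tested.

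Among the secreted inhibitors, Sfrp1 was lower in Ts1Cje on array A at an unadjusted p under 0.05 and did not pass. Sfrp1 on array A ran from 25.02 through 31.2 to 36.7 in 2N and from 16.4 through 24.1 to 29.5 in Ts1Cje. All 6 Ts1Cje samples lay below the 2N median, and the ranges overlapped. The log2 difference was -0.38 (SE 0.17, limma adjusted p = 0.991, exact permutation p = 0.039), and the exact permutation p was 0.13 without normalisation. It was -0.23 in the samples numbered 3 to 6 and -0.67 in those numbered 1 and 2. The brighter probe set of array B ran from 52.8 through 58.9 to 73.7 in 2N and from 38.7 through 64.9 to 72.3 in Ts1Cje. Here 4 of 6 Ts1Cje samples lay above the 2N median, and the log2 difference was -0.08 (SE 0.15), with 0.04 in the samples numbered 3 to 6 and -0.32 in those numbered 1 and 2. Dkk3, whose protein differs from other Dkk proteins in not binding the Lrp co-receptors, differed by 0.08 (SE 0.10) on array A and 0.12 (SE 0.13) on array B. Sfrp2 differed by 0.02 (SE 0.16).

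**Figure D3:**
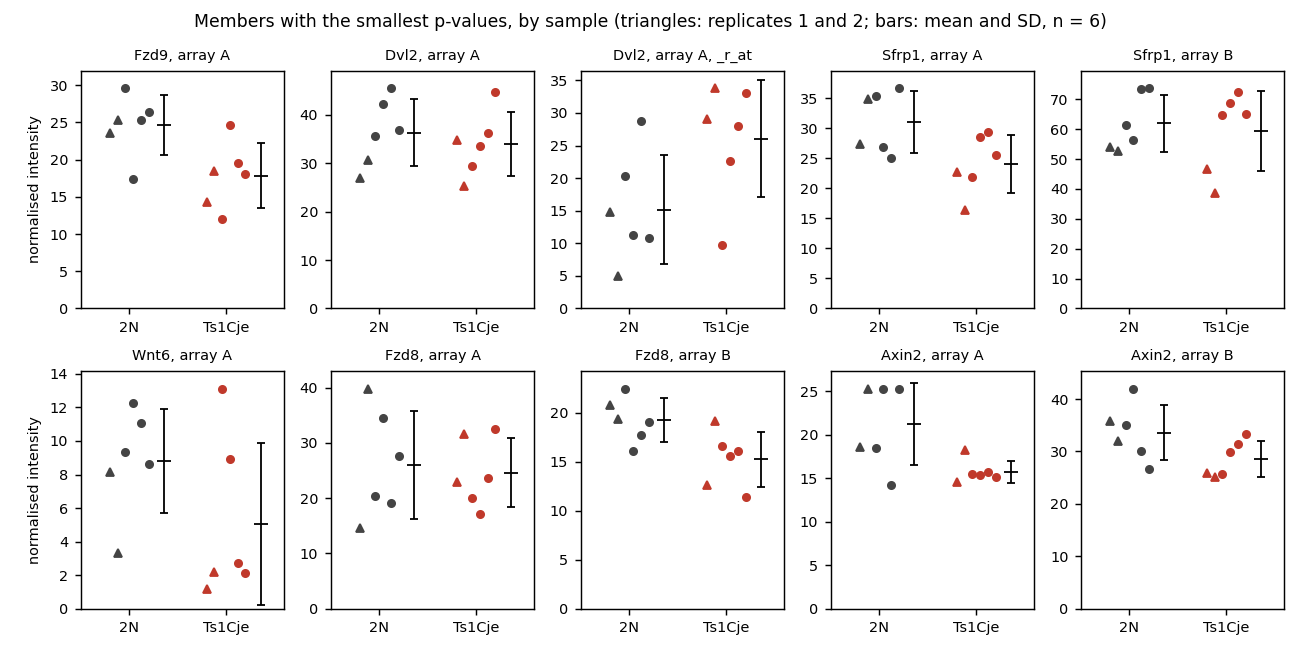
Normalised intensity (arbitrary units) in each sample for the 6 genes with a member at an unadjusted p under 0.05, with all the tested probe sets of those genes; triangles are the samples numbered 1 and 2, circles those numbered 3 to 6, and bars the mean and SD of 6 samples. In every panel the genotypes overlap, and for Dvl2, Sfrp1, Fzd8 and Axin2 the other probe set of the gene shows a smaller difference.

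Axin2, the scaffold that beta-catenin signalling induces and that limits it in turn, was lower in Ts1Cje with both its probe sets, neither of which passed. On array A it ran from 14.3 through 21.9 to 25.3 in 2N and from 14.6 through 15.4 to 18.2 in Ts1Cje. All 6 Ts1Cje samples lay below the 2N median, but 1 2N sample lay below all of them. Means were 21.2 ± 4.72 and 15.8 ± 1.27 (SD, n = 6 each), which gave a difference of -0.40 on the log2 scale (SE 0.19, 95% interval -0.80 to -0.00, limma adjusted p = 0.991, exact permutation p = 0.037). The difference was -0.40 in the samples numbered 1 and 2 as well as in those numbered 3 to 6, and the exact permutation p was 0.035 without normalisation. On array B, Axin2 ran from 26.6 through 33.5 to 42.0 in 2N and from 25.2 through 27.9 to 33.3 in Ts1Cje. Again all 6 Ts1Cje samples lay below the 2N median, with overlapping ranges, and the log2 difference was -0.23 (SE 0.13, 95% interval -0.50 to 0.05, limma adjusted p = 0.997, exact permutation p = 0.078). There the difference was -0.41 in the samples numbered 1 and 2 and -0.13 in those numbered 3 to 6. Without normalisation the exact permutation p on array B was 0.46. The labels number the samples alike on both arrays and leave unsaid whether equal numbers mean equal RNA, so the 2 arrays need not be independent.

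Dvl2, a Dishevelled gene, was higher in Ts1Cje with 1 probe set of 2. The probe set ending in _r_at ran from 4.92 through 13.0 to 28.8 in 2N and from 9.69 through 28.5 to 33.8 in Ts1Cje. The ranges overlapped, with 5 of 6 Ts1Cje samples above the 2N median. The log2 difference was 0.88 (SE 0.38, limma adjusted p = 0.991, exact permutation p = 0.082), with 0.38 in the samples numbered 3 to 6 and 1.85 in those numbered 1 and 2. The brighter probe set ran from 27.0 through 36.2 to 45.5 in 2N and from 25.3 through 34.1 to 44.6 in Ts1Cje, a log2 difference of -0.09 (SE 0.16).

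The bright intracellular core was measured most precisely, and its differences were small. Ctnnb1 ran from 504 through 563 to 627 in 2N and from 558 through 573 to 618 in Ts1Cje. The Ts1Cje range lay within the 2N range, and the log2 difference was 0.05 (SE 0.063, limma adjusted p = 0.991), or 1.04-fold with a 95% interval from 0.946-fold to 1.14-fold. Gsk3a ran from 721 through 810 to 939 in 2N and from 811 through 839 to 892 in Ts1Cje, with a log2 difference of 0.04 (SE 0.065, 95% interval -0.10 to 0.17). Dvl1 ran from 205 through 245 to 286 and from 231 through 249 to 275, with a log2 difference of 0.07 (SE 0.085, 95% interval -0.11 to 0.25). For both, too, the Ts1Cje range lay within the 2N range. The sign for these 3 genes turned without normalisation between arrays.

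The 2 genes of chromosome 16 outside the trisomic segment, Gsk3b and Dvl3, did not pass. Gsk3b, the kinase of the destruction complex that lithium inhibits, had 3 probe sets on array B. The brightest ran from 62.4 through 72.5 to 75.7 in 2N and from 45.4 through 64.5 to 82.3 in Ts1Cje, a log2 difference of -0.18 (SE 0.13, 95% interval -0.44 to 0.08). The others differed by 0.10 (SE 0.15, 95% interval -0.21 to 0.41) and -0.05 (SE 0.13, 95% interval -0.32 to 0.22). All 3 intervals end below 1.5-fold higher. Dvl3 ran from 9.78 through 18.1 to 22.1 in 2N and from 9.78 through 15.1 to 18.6 in Ts1Cje, a log2 difference of -0.19 (SE 0.25, 95% interval -0.71 to 0.33).

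**Figure D4:**
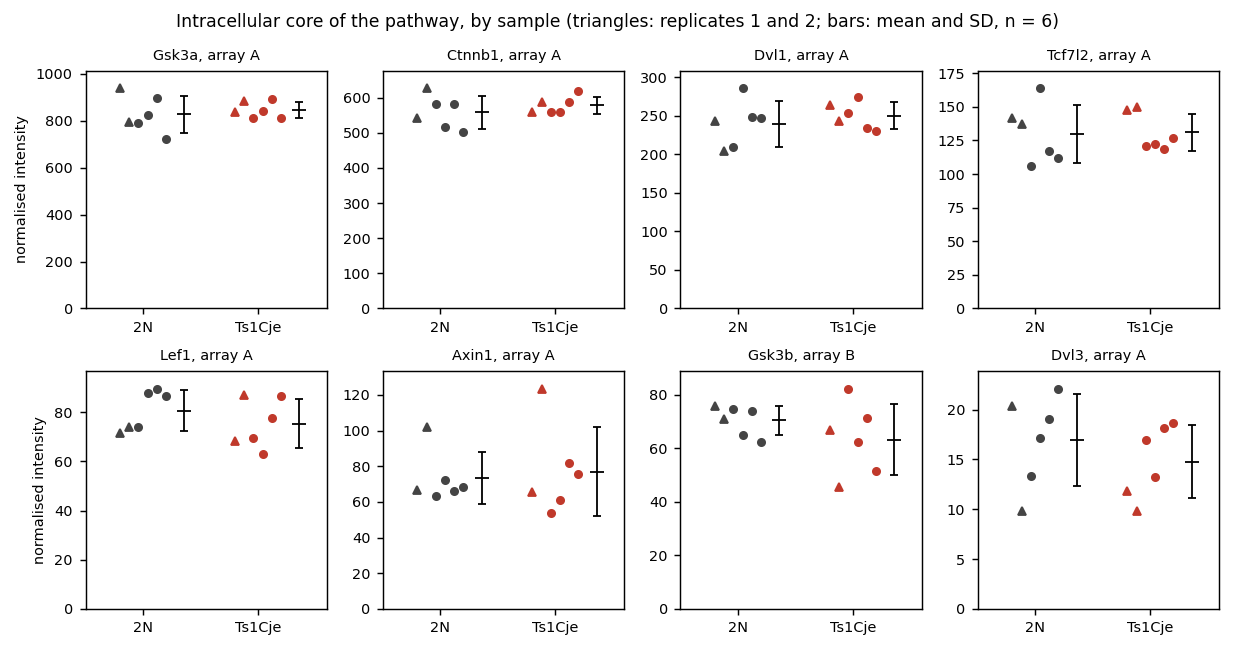
Normalised intensity (arbitrary units) in each sample for 8 probe sets of the intracellular members, with the mean and SD of 6 samples as bars; triangles are the samples numbered 1 and 2. The genotypes overlap in every panel, and the means of Ctnnb1 are 559 in 2N and 578 in Ts1Cje.

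Of the other destruction complex genes, Axin1, the main scaffold, differed by 0.04 (SE 0.17). Its samples spread widely, from 63.5 to 102 in 2N and from 54.0 to 124 in Ts1Cje. Apc, the scaffold whose loss drives colon cancer, differed by 0.13 on array A and by 0.07 and 0.13 with its probe sets of array B. Among nuclear factors, Lef1 differed by -0.10 (SE 0.11) and -0.17 (SE 0.22) with its probe sets of array A and by 0.09 (SE 0.095) on array B. Tcf7l1, mostly a repressor, differed by -0.19 (SE 0.20) with its brighter probe set and by 0.22 (SE 0.44) with the other. For Tcf7l2, a Tcf factor abundant in thalamus, the probe sets ending in _f_at and on array B differed by 0.02 (SE 0.11) and -0.03 (SE 0.075), while one ending in _s_at differed by -0.67 (SE 0.32, limma adjusted p = 0.991, exact permutation p = 0.15). That last probe set ran from 37.1 through 46.9 to 59.0 in 2N and from 11.8 through 35.3 to 58.7 in Ts1Cje. The Ts1Cje samples reached far below the 2N range and almost to its top, and without Ts1Cje replicate 1 the difference was -0.40.

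For genes measured more than once, the probe sets often disagreed in sign. Of 18 genes with more than 1 tested probe set, 11 had both signs and 7 had 1 sign. Axin2, Fzd8, Sfrp1, Wnt7b and Wnt10b were below 0 throughout, and Apc and Dkk3 above 0 throughout.

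The precision reached depended on the signal. The 95% interval lay within 1.5-fold either way for 28 of the 61 tested probe sets, which stood for 20 genes. All 28 were among the 38 tested probe sets above the median of their table, and none of the 23 others had an interval within those bounds. The median half-width of the interval was 0.33 on the log2 scale for the former and 0.94 for the latter. Most of the 23 were ligands and receptors, and the half-width was above log2 of 1.5 for 19 of them and under it for 4, which were probe sets of Lef1, Dvl3, Wnt5a and Wnt1.

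**Figure D5:**
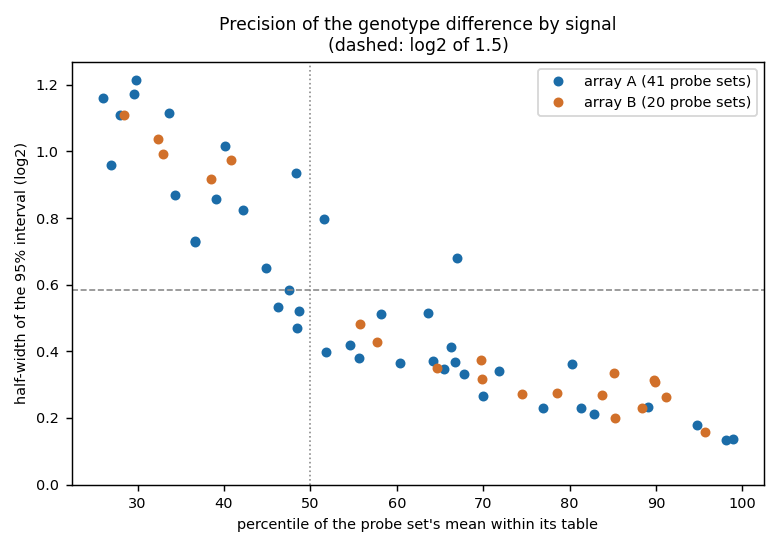
Half-width of the 95% interval of the log2 difference against the percentile of the probe set's mean within its table, for the 61 tested members; the dashed line is log2 of 1.5 and the dotted line the table median. The half-width falls from about 1 among the dimmest members to under 0.2 for Ctnnb1, Gsk3a and Dvl1.

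Other genes of the pathway were counted from lists of agonists, surface regulators, kinases and ligases of beta-catenin turnover, nuclear co-factors, junction partners, planar polarity genes and transcriptional targets. Each gene was taken only at its probe set with the highest mean on an array, and its other probe sets were not counted. None of 91 genes tested in this way on array A and none of 53 on array B passed (limma). At an unadjusted p under 0.05 there were 3 and 1, against 3.65% and 4.28% of all probe sets of the 2 tables. Their median difference on the log2 scale was 0.01 for array A and 0.04 for array B. Of the known transcriptional targets, 21 were tested on array A, with 12 above 0 and a median of 0.02, and 6 on array B, with 1 above 0 and a median of -0.11. None of these targets had an unadjusted p under 0.05 (limma).

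The other pathway genes with the smallest p-values acted at several levels. Ctnnd1, p120-catenin, which holds cadherins at the cell surface, had 282 ± 30.2 in 2N and 244 ± 20.8 in Ts1Cje (SD, n = 6 each), and differed by -0.21 (SE 0.081, limma adjusted p = 0.991). Frzb, a secreted inhibitor of the Sfrp family that the rule did not include, was dim at 3.73 ± 2.49 and 8.15 ± 3.04 (SD, n = 6 each), with a difference of 1.22 (SE 0.50). Chd8, a chromatin remodeller that binds beta-catenin, differed by 0.23 (SE 0.10) on array A and 0.33 (SE 0.20) on array B. Ctnnbip1, which blocks the binding of beta-catenin to Tcf, had 206 ± 20.3 and 236 ± 18.4 on array B (SD, n = 6 each), a difference of 0.20 (SE 0.081, limma adjusted p = 0.997), and differed by 0.08 (SE 0.10) on array A. For all of these the genotypes overlapped. The remaining 5 named by rule were Sox17 at -0.45 and Csnk2a1 at -0.33 on array A, and Ppp2r5b at 0.18, Daam2 at 0.67 and Map3k7 at 0.13 on array B, none of which passed.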

How the data were processed

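The authors deposited a linear intensity for every probe set in every sample, in 1 table for each array design. Neither the probe summary nor the scaling is given in the sources used here. The 66 control probe sets of each table were left out. The arrays' 2% trimmed means differed by up to 2.10-fold (array A) and 1.86-fold (array B), so each table was quantile normalised. Values below the 10th percentile of a table (1.47 and 1.13) were raised to it before log2. Those whose mean reached the 25th percentile, 9316 and 9308 probe sets, were tested with limma 3.58.1 (lmFit, eBayes with a mean-variance trend) in R 4.3.3, and Benjamini-Hochberg adjustment over each table with a threshold of 0.05. The tables were normalised and tested apart. The floor can shrink the fold change of a probe set with samples at it, and 56 of the 61 tested members had none. Intensity errors are SD and those of differences are standard errors with 95% intervals. Single members were also compared by two-sided exact permutation of the genotype labels (924 arrangements), for all 61 tested members, with no adjustment over them.

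Genes were taken from the platform annotation, which gives 1 symbol for 10833 and 10581 probe sets, several for 396 and 178, and none for 1193 and 1652. The named members were the 3 brightest genes of each role, the 8 smallest p on each array, genes with opposite signs above 0.2 in size, and those on chromosomes 16 and 12. Of the other pathway genes, the 5 smallest p per array were named. Other tested probe sets of named genes are given beside them. The members and lists were chosen with earlier results of these data known. The pipeline was tested on simulated data, in which 100 probe sets per array were changed at each of 2 sizes. Of the 1.5-fold changes the limma test recovered 40% on array A and 36% on array B. Of the 2-fold changes it recovered 66% and 55%. False calls numbered 9 on array A and 8 on array B. A probe set with a change of either size could thus fail to pass. With fewer changed probe sets the adjusted threshold is stricter, so recovery in the real tables may be lower. The alternatives changed the normalisation, floor, filter, test, array weights and samples. The number of arrays limits the precision.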

Additional observations from a re-analysis of the deposited data

Results flagged for a closer look

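Samples that stood far from the other 5 of their group were found in 6 of the 76 groups tested with Dixon's ratio on the log2 scale, where chance gives about 1 in 20. On array A, Ts1Cje replicate 3 was lowest for Dvl2 (_r_at) at 9.69, with the next sample at 22.6. Axin1 was highest in 2N replicate 2 at 102, with the next at 72.3. Axin2 was highest in Ts1Cje replicate 2 at 18.2, with the next at 15.7. Wnt6 was lowest in 2N replicate 2 at 3.33, with the next at 8.13. Fzd3 (the dim probe set) was lowest in that same sample at 1.76, with the next at 7.35. On array B, the dimmest Gsk3b probe set was lowest in Ts1Cje replicate 4 at 20.4, with the next at 24.9.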

How the results depend on the processing

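With limma, 0 members and 0 other pathway genes passed under every alternative run, on both arrays. With the replicate number as a block, 0 passed, the smallest adjusted p was 0.893 and there were 4 at an unadjusted p under 0.05 for array A and 0 for array B (limma). Deviations of same-numbered samples correlated at 0.016 to 0.079 (array A) and 0.012 to 0.11 (array B), and not every sample deviated most like its own number. The unadjusted count of 5 on array A was 2 without normalisation, with array weights, in replicates 3 to 6 alone or in replicates 1 and 2 alone, and 3 with the floor at the 20th percentile. The unadjusted count of 1 on array B was 0 without normalisation, scaled to a common trimmed mean, with the floor at the 20th percentile, with the replicate split as a term or in replicates 1 and 2 alone, and 2 in replicates 3 to 6 alone. Signs turned among named members whose log2 difference was 0.26 or less in size. Without normalisation they became -0.010 for Ctnnb1, -0.0028 for Dvl1, -0.018 for Axin1, -0.028 for Gsk3a, -0.036 for Tcf7l2 (_f_at), -0.031 for Sfrp2 and 0.017 for Gsk3b (dimmest). In replicates 1 and 2 alone they became -0.019 for Ctnnb1, 0.22 for Lrp6, 0.041 for Dvl2 (brighter), -0.015 for Gsk3a, 0.079 for Lef1 (array A), -0.12 for Dkk3 (array A), -0.26 for Sfrp2, -0.28 for Gsk3b (of middle brightness), 0.18 for Fzd1 (array B) and -0.15 for Fzd6 (array B). In replicates 3 to 6 alone they became -0.0070 for Axin1, -0.34 for Wnt1, 0.052 for Wnt7b (array A), -0.0094 for Tcf7l2 (_f_at), 0.036 for Fzd2, 0.00096 for Fzd3 (_s_at) and 0.038 for Sfrp1 (array B). With array weights they became -0.065 for Wnt1 and 0.022 for Wnt7b (array A). The cause was not tested. With each sample left out in turn, the log2 difference ranged from -0.12 to 0.0014 for Lrp6, from -0.11 to 0.14 for Axin1, from -0.0038 to 0.073 for Gsk3a, from -0.090 to 0.21 for Wnt1, from -0.18 to 0.15 for Wnt7b (array A), from -0.032 to 0.094 for Tcf7l2 (_f_at), from -0.15 to 0.015 for Fzd3 (_s_at), from -0.076 to 0.083 for Sfrp2, from -0.078 to 0.010 for Gsk3b (dimmest) and from -0.15 to 0.033 for Sfrp1 (array B). Fzd6 (array A) and Wnt6 fell below the filter in replicates 1 and 2 alone and were not tested there. No member at or below its table's median had an interval within 1.5-fold either way, though the half-width was under log2 of 1.5 for 4 of them.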
